A study of Mus musculus with 12 samples.

Results

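The C-type lectin pattern receptors of Mφ were followed here as 8 genes, Clec7a, Clec4n, Clec4d, Clec4e, Clec4a1, Clec4a2, Clec4a3 and Clec12a, out of 24445 gene symbols counted in RNA of cardiac Mφ. They were taken by gene symbol, and all 8 passed the filter on low counts. The 12 libraries came from C57BL6/J mice, with 4 mice in each of 3 groups. Control (Ct) mice carried a saline pump, for a time that the sources used here do not give per mouse. Early concentric hypertrophy (ECH) and heart failure (HF) mice received isoproterenol, an agonist of β-adrenergic receptors, at 30 mg/kg/day for 14 and for 28 days. All 3 groups were enriched for CD45+ cells, gated on CD11b and sorted for CD14 and CD64, so the Mφ of every group had been selected for these proteins. No group carried a genetic change, and infusion time differs between ECH and HF together with the state of the heart, so these cannot be told apart.

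C-type lectin receptors are surface proteins with which myeloid cells recognise sugars and glycolipids of fungi and bacteria, and some also bind material from dying cells. Clec7a encodes Dectin-1, a β-glucan receptor that recruits the kinase Syk through its own tail. Clec4n (Dectin-2), Clec4d (MCL) and Clec4e (Mincle) have no such tail and signal through the adaptor FcRγ, the product of Fcer1g, and MCL and Mincle can form a complex. Clec12a encodes MICL, an inhibitory receptor that binds uric acid crystals. Clec4a2 encodes DCIR1, whose tail holds an inhibitory motif, and Clec4a1 and Clec4a3 encode its relatives DCIR4 and DCIR3.

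All 8 genes lie on chromosome 6 (GRCm38, GENCODE M21), in a pair of clusters. In the first, Clec4a1 (122921848 to 122934619), Clec4a3 (122952515 to 122969875), Clec4a2 (123106428 to 123143999), Clec4n (123229843 to 123247021), Clec4d (123262111 to 123275265) and Clec4e (123281789 to 123289870, on the minus strand) fall within 368 kb, with Clec4a4, Clec4b1 and Clec4b2 between them. Clec4d and Clec4e are neighbours, 6523 bp apart, on opposite strands. In the second, Clec12a (129342691 to 129365303) and Clec7a (129461591 to 129472779, on the minus strand) fall within 130.1 kb. The annotation types Clec7a as a polymorphic pseudogene and the other 7 as protein-coding. Between relatives, reads can be shared: of the 2407 windows of 75 bases in the longest Clec4a2 transcript, 97 (4.03%) also occur in a transcript of Clec4a4 or Clec4b1, whereas 0 windows of the other 7 genes occur in another gene. Reads with mismatches could still be misplaced among these relatives.

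The 250 bases upstream of the RefSeq start (GRCm38.p6) are given for 4 genes with which the results are concerned: Clec4d, its neighbour Clec4e, and Clec7a and Clec12a of the second cluster. RefSeq promoters were found for 7 of the 8 genes, all but Clec4n, and for Clec7a the more upstream of 2 starts is shown. The positions are chr6:123261857-123262106 on the plus strand for Clec4d, chr6:123289872-123290121 on the minus strand for Clec4e, chr6:129472786-129473035 on the minus strand for Clec7a and chr6:129349994-129350243 on the plus strand for Clec12a. The Clec12a window lies inside the gene as GENCODE M21 places it (129342691 to 129365303), so RefSeq and GENCODE differ on its start. Each window reads 5′ to 3′ along its gene, with capitals at matches to the motifs described after the sequences.
Clec4d: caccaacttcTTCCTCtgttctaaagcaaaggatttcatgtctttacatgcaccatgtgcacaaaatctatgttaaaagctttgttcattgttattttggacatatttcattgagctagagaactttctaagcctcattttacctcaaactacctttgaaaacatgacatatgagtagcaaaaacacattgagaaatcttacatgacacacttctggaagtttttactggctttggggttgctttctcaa
Clec4e: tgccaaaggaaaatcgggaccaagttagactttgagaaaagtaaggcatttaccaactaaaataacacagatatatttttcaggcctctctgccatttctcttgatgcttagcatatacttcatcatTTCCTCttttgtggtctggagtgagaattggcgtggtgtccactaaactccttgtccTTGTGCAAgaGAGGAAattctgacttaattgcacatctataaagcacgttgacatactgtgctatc
Clec7a: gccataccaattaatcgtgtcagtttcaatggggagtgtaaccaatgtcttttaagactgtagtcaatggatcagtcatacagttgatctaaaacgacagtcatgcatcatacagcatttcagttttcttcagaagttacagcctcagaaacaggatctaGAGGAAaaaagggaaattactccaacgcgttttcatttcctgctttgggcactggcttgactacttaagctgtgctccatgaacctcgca
Clec12a: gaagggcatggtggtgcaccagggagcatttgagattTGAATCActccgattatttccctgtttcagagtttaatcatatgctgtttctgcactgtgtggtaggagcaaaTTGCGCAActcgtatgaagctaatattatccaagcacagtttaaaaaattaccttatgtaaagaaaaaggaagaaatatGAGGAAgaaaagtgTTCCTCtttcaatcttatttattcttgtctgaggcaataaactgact

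The motifs searched on both strands were the PU.1 core GAGGAA, C/EBP TTGCNNAA, AP-1 TGANTCA, the CRE half-site TGACG and an NF-kB motif of 10 letters, and none of the matches overlaps one of another motif. Of the 32851 mouse promoter windows of this length, 23.3% hold the PU.1 core, 9.56% the C/EBP letters, 6.75% the AP-1 letters, 17.8% the CRE half-site and 3.33% the NF-kB motif. Clec4d has a single PU.1 core, on the reverse strand, 240 to 235 bases before its start. Clec4e has a PU.1 core 123 to 118 bases before the start and another 56 to 51 bases before it, beside the C/EBP letters at 66 to 59 bases. Clec7a has a single PU.1 core at 90 to 85 bases. Clec12a has the AP-1 letters at 213 to 207 bases, the C/EBP letters at 140 to 133 bases and PU.1 cores at 61 to 56 and at 47 to 42 bases. Of the windows not printed, that of Clec4a1 has PU.1 cores at 217 to 212 and at 187 to 182 bases. Those of Clec4a2 and Clec4a3 have no match to any of the motifs. None of the 7 windows holds the CRE half-site or the NF-kB motif. These matches describe the letters of each window and were not tested for binding.

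The libraries held between 88466559 and 111180291 counts, and between 13600 (HF library 1) and 15940 genes had a count. The sorted cells had the markers of Mφ: Cd14, Fcgr1, Adgre1, Csf1r, Cd68, Itgam, Mertk, C1qa, C1qb and Lyz2 together summed to between 29287 and 41450 CPM (counts scaled to library size by TMM) in every library, and 0 of these 10 genes were called between groups by edgeR. DESeq2 called Mertk higher in ECH, as compared to both Ct and HF. Markers of other cells were not level between groups. The 10 neutrophil markers summed to between 368 and 1762 CPM in Ct libraries, 195 and 697 CPM in ECH libraries, and 131 and 1267 CPM in HF libraries, with Camp at 0 in all HF libraries. The 10 genes of tissue dissociation (Fos, Jun, Egr1 and others) summed to between 34186 and 46632 CPM in Ct libraries, 15055 and 35554 CPM in ECH libraries, and 16221 and 28890 CPM in HF libraries. The 6 B cell markers with counts summed to between 100.1 and 461 CPM in Ct libraries, 36.1 and 82.0 CPM in ECH libraries, and 50.7 and 77.4 CPM in HF libraries. Library numbers in the labels allow a set A (all Ct, ECH libraries 1 and 2) and a set B (ECH libraries 3 and 4, all HF) to be inferred, which no source states. Of the 7 resident Mφ genes, edgeR called Timd4 lower in ECH than in Ct, and it called 0 genes of the neutrophil, Ly6C-high monocyte, dendritic cell and tissue dissociation lists. Markers of T and NK cells, endothelial cells, fibroblasts and cardiomyocytes each summed to at most 428 CPM in any library, and those of resident Mφ to 4661 to 6541 CPM.

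Among the receptors, Clec4d rose in ECH Mφ and Clec4n rose in HF Mφ by edgeR, as compared to Ct, and neither was called between ECH and HF. Clec7a and Clec12a had their lowest means in HF and ECH respectively and passed the edgeR test in neither comparison. The 3 Clec4a genes and Clec4e stayed within narrow or overlapping ranges. A gene was called at an FDR (Benjamini-Hochberg over 14608 genes) under 0.05 with a fold change of at least 2 in edgeR's quasi-likelihood test of all libraries. By this rule 1 of the 8 receptors was called between ECH and Ct, where 0.356% of all genes tested were called, and 1 of 8 between HF and Ct, where 0.377% were. Between ECH and HF, 0 of 8 were called and 0 of all genes tested, with 1 of 8 receptors and 7.98% of all genes at an unadjusted p under 0.05. As alternatives, DESeq2 called 3 of 8 in ECH (Clec4d, Clec4n and Clec12a, with 1.70% of all genes) and 3 of 8 in HF (Clec4d, Clec4n and Clec7a, with 2.28%). Limma-voom called 2 of 8 in ECH (Clec4d and Clec12a, with 0.575%) and 2 of 8 in HF (Clec4d and Clec4n, with 0.890%). Between ECH and HF both called 0 of 8, DESeq2 with 0.322% of all genes called and limma-voom with 0. Both comparisons with Ct share the Ct libraries.

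**Figure D1:**
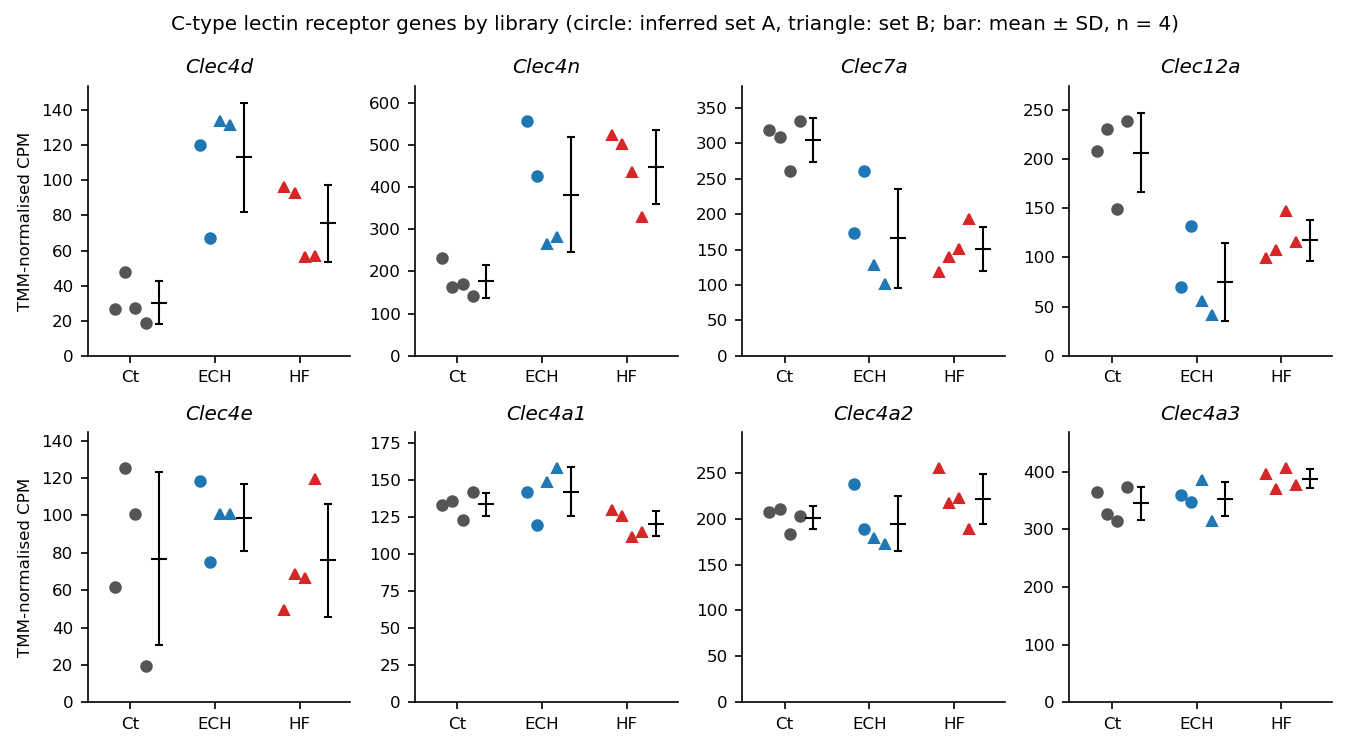
Levels of the 8 receptor genes in each library, as TMM-normalised CPM on linear axes from 0. Each point is the library of a mouse (circles, inferred set A; triangles, set B), and the bar is the mean with its SD over 4 libraries. Clec4d and Clec4n are higher in every ECH and HF library than in every Ct library, and the Clec4a genes overlap in all groups.

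Clec4d, which encodes MCL, was at 26.8, 47.8, 27.4 and 19.02 CPM in Ct libraries 1 to 4, at 120.2, 67.2, 134 and 131 CPM in ECH and at 96.2, 93.0, 56.1 and 57.0 CPM in HF. Every ECH and every HF library was above the highest Ct library, and the ECH and HF ranges overlapped. The means were 30.3 ± 12.3 CPM in Ct against 113 ± 31.2 in ECH and 75.6 ± 21.99 in HF (SD, n = 4). Clec4d rose 3.74-fold in ECH (log2 fold change 1.90 ± 0.31 SE, edgeR FDR 0.0202), and ranked 20 by p among the 14608 genes. The log2 fold change of HF over Ct was 1.32 ± 0.30 (edgeR FDR 0.0791), and it was called by DESeq2 (FDR 0.00135) and limma-voom (FDR 0.0389). That of ECH over HF was 0.58, with a 95% interval from −0.058 to 1.22 (edgeR FDR 0.653). The call in ECH was lost without Ct library 1 (edgeR FDR 0.0730), Ct library 4 (0.0526), ECH library 3 (0.0703) or ECH library 4 (0.0521), and over all alternatives the FDR lay between 2.58e-07 and 0.577. It was also lost with only ECH and Ct in the fit (edgeR FDR 0.0649) and with the replicate block (0.0511), and was kept in 13 of 21 alternatives. It was lost as well with the inferred set as a covariate, at a log2 fold change of 1.63 (edgeR FDR 0.126), and in HF the value then was 0.82 (edgeR FDR 0.484). With only libraries of set A the log2 fold change was 1.63 (edgeR FDR 0.577, with 0.00674% of genes called), and the sign did not change in any alternative run.

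Clec4n, which encodes Dectin-2, was at 232, 164, 170.2 and 141 CPM in Ct libraries 1 to 4, at 556, 426, 264 and 282 CPM in ECH and at 524, 502, 435 and 329 CPM in HF. Again every ECH and HF library was above all Ct libraries. Within ECH, libraries 1 and 2 (set A) were above libraries 3 and 4 (set B). The means were 177 ± 38.8 CPM in Ct against 382 ± 137 in ECH and 448 ± 87.4 in HF (SD, n = 4). Clec4n rose 2.53-fold in HF (log2 fold change 1.34 ± 0.25 SE, edgeR FDR 0.0361), and the log2 fold change of ECH over Ct was 1.11 ± 0.24 (edgeR FDR 0.0732), which DESeq2 called (FDR 0.000805) and limma-voom did not (FDR 0.0770). The call in HF was lost without any of Ct libraries 1, 2 and 4 or HF libraries 1, 2 and 3 (edgeR FDR 0.0695 to 0.104), without Ct library 2 and HF library 1 together (0.121), and was kept in 13 of 20 alternatives, with an FDR from 1.22e-05 to 0.121. Within set A, ECH libraries 1 and 2 were above Ct by a log2 fold change of 1.47 (edgeR FDR 0.197), and within set B, ECH libraries 3 and 4 were below HF by −0.72 (edgeR FDR 0.0728, with 2.49% of genes called). With the set as a covariate, ECH over Ct was called (1.47, edgeR FDR 0.0211, range over alternatives 0.000805 to 0.197), where 0.151% of genes were, and HF over Ct was 2.19 (edgeR FDR 0.00928).

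Clec4n and Clec4d stood beside markers of other cells as follows. The 8 markers of Ly6C-high monocytes, a cell type that also uses these receptors, summed to between 2265 and 5614 CPM in Ct libraries, 4470 and 5387 CPM in ECH libraries, and 4589 and 5648 CPM in HF libraries, and none was at 0 in all libraries of a group. The neutrophil sum had its median at 974 CPM in Ct against 335 in ECH and 266 in HF, highest in Ct, where both receptors were lowest. The 7 fibroblast markers had fold changes above 0 in both ECH (median log2 1.17) and HF (0.64), with median sums of 73.9, 190 and 142 CPM in Ct, ECH and HF, the same order as the means of Clec4d, and 0 of them were called by edgeR. The 8 T and NK cell markers had fold changes below 0 in both, with median sums of 47.6, 24.1 and 25.6 CPM. The part of these cells in the result was not tested, and in sorted bulk RNA fewer cells of a type and less RNA per cell cannot be told apart.

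Clec7a, which encodes Dectin-1, was at 318, 309, 261 and 331 CPM in Ct libraries 1 to 4, at 173, 261, 128 and 102 CPM in ECH and at 118, 140.0, 151 and 193 CPM in HF. All HF libraries were below all Ct libraries, while ECH library 2 lay level with the lowest Ct library. The means were 305 ± 30.7 CPM in Ct against 166 ± 69.9 in ECH and 151 ± 31.3 in HF (SD, n = 4). The log2 fold change was −0.88 ± 0.25 in ECH (edgeR FDR 0.158) and −1.02 ± 0.25 in HF (edgeR FDR 0.0977) as compared to Ct, so neither passed in edgeR. DESeq2 called the HF difference (−1.02, FDR 0.00305), as did edgeR with only Ct and HF in the fit (FDR 0.0425). Without ECH library 2 both were called by edgeR, ECH at −1.18 (edgeR FDR 0.0307) and HF at an FDR of 0.0477, and over the alternatives the FDR lay from 0.0179 to 0.947 for ECH and from 0.00305 to 0.926 for HF. With the inferred set as a covariate, the log2 fold change of HF was −0.10. Between ECH and HF it was 0.14, with an interval from −0.39 to 0.67.

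Clec12a, which encodes MICL, was at 208, 230.5, 149 and 238 CPM in Ct libraries 1 to 4, at 69.96, 132, 55.4 and 42.1 CPM in ECH and at 99.5, 108, 147 and 116 CPM in HF. All ECH and all HF libraries were below all Ct libraries, HF library 3 by a narrow margin, and the ECH range reached into that of HF through library 2. The means were 207 ± 40.4 CPM in Ct against 74.9 ± 39.8 in ECH and 118 ± 20.9 in HF (SD, n = 4). The log2 fold change in ECH was −1.46 ± 0.30 (edgeR FDR 0.0512), just beyond the threshold, and in HF −0.81 ± 0.29 (edgeR FDR 0.215). The ECH difference was called in 6 of 21 alternatives, among them DESeq2, limma-voom, RLE scaling and the fits without Ct library 3 (edgeR FDR 0.0413) or ECH library 2 (−1.89, edgeR FDR 0.00499), over a range of FDR from 9.08e-05 to 0.777.

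Clec12a also separated ECH from HF within set B. There, ECH libraries 3 and 4 held 55.4 and 42.1 CPM where HF held 99.5 to 147 CPM, a log2 difference of −1.27 ± 0.20 SE (edgeR FDR 0.0146, 1 of 8 receptors and 2.49% of all genes called). With all libraries and no set term it was −0.65, interval −1.28 to −0.020 (edgeR FDR 0.615). With the set as a covariate it was −1.27 (edgeR FDR 0.0309, range over alternatives 0.0146 to 1), with 1.86% of all genes called, and the HF difference from Ct then turned to 0.24 (edgeR FDR 0.839, with 1.42% of all genes and 1 of 8 receptors, Clec4n, called). All Ct libraries lie in set A and all HF libraries in set B, so HF over Ct has no value within a set. Markers of other cells moved beside Clec12a: the B cell sum had its median at 197 CPM in Ct against 52.7 in ECH and 60.3 in HF, and the 10 dendritic cell markers summed to between 146 and 287 CPM in Ct libraries, 117 and 166 CPM in ECH libraries, and 162 and 216 CPM in HF libraries, with none of either list at 0 in all libraries of a group. The dendritic cell markers did not move together, as 5 of 10 had a fold change above 0 in ECH and 5 below (median −0.15). Ccr7 was at 104 ± 49.2 CPM in Ct and 31.0 ± 14.1 CPM in ECH, and Flt3 at 3.17 ± 2.88 and 27.1 ± 21.5 CPM, while Siglech was at 22.4 ± 11.7 and 6.32 ± 2.47 CPM. All of these were called by DESeq2, Ccr7 and Siglech also by limma-voom, and none by edgeR. Both sums and Clec12a were lowest in library 3 among the Ct libraries, but the B cell sum was highest in HF library 1 (77.4 CPM), where Clec12a was lowest of HF. Their part in the result was not tested.

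Clec4e, which encodes Mincle, was at 61.8, 126, 101 and 19.7 CPM in Ct libraries 1 to 4, at 118, 74.9, 101 and 101 CPM in ECH and at 49.2, 68.6, 66.6 and 119 CPM in HF. The Ct libraries alone spanned all ECH and HF libraries. The means were 76.9 ± 46.3 CPM in Ct against 98.7 ± 17.9 in ECH and 75.9 ± 30.2 in HF (SD, n = 4). The log2 fold change was 0.36 in ECH, with an interval from −0.56 to 1.28 (edgeR FDR 0.789), and −0.019 in HF, from −0.93 to 0.90 (edgeR FDR 0.989), and these intervals reach close to or beyond a 2-fold change. The direction in HF turned in 8 of 20 alternatives. Clec4e shared its order in Ct with the neutrophil sum, which was 686, 1762, 1262 and 368 CPM in Ct libraries 1 to 4, and in HF both were highest in library 4 (1267 CPM of neutrophil markers), while their lowest HF libraries differed. They did not share it in ECH, where the neutrophil sum was 316, 354, 195 and 697 CPM. The part of neutrophils was not tested.

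The DCIR genes varied little. Clec4a1 was at 134 ± 7.84 CPM in Ct against 142 ± 16.4 in ECH and 121 ± 8.63 in HF (SD, n = 4). Clec4a2 had means of 201 ± 12.3, 194 ± 29.7 and 221 ± 27.2 CPM, and Clec4a3 of 345 ± 28.7, 352 ± 29.5 and 388 ± 16.5 CPM. Their log2 fold changes lay between −0.19 and 0.24 over all 3 comparisons, with an edgeR FDR of 0.491 or more. Their 95% intervals over Ct lay between −0.40 and 0.42, inside a 2-fold change. For Clec4a2, the reads that it can share with Clec4a4 and Clec4b1 leave its level uncertain, with Clec4a4 at 2.23 CPM or less on average in each group and Clec4b1 at means of 72.4, 39.7 and 56.0 CPM in Ct, ECH and HF.

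**Figure D2:**
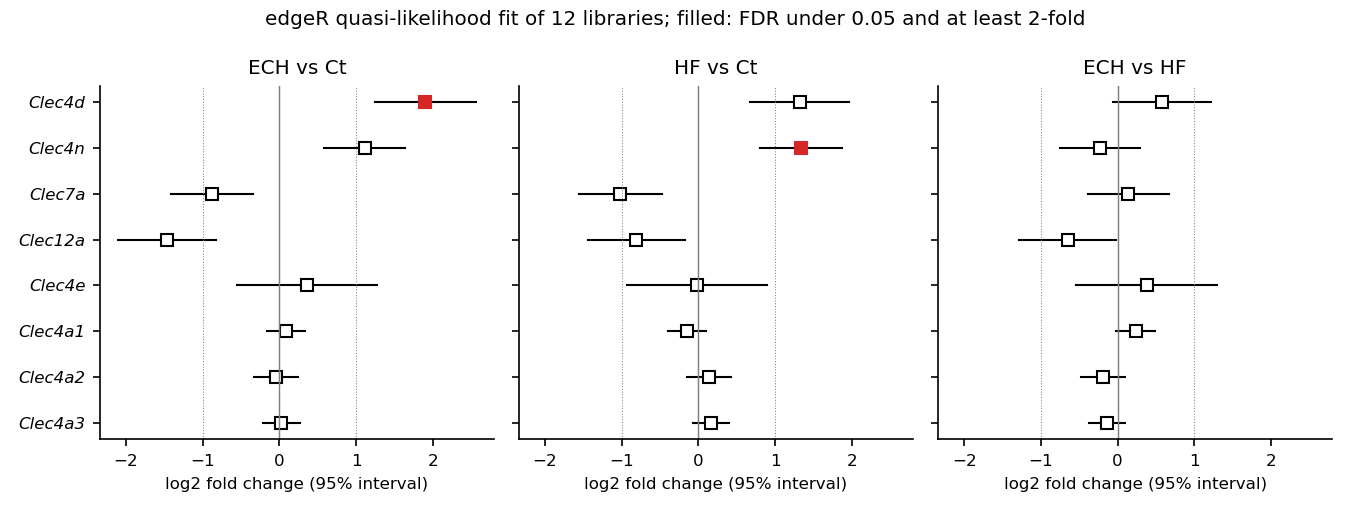
Log2 fold changes of the 8 receptor genes in the 3 comparisons, with 95% intervals from the edgeR quasi-likelihood fit. Filled squares are genes called at an FDR under 0.05 and at least 2-fold, and dotted lines mark a 2-fold change. Clec4d in ECH (1.90) and Clec4n in HF (1.34) are filled, and the intervals of the Clec4a genes lie close to 0.

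As single values, 3 of the 8 receptors had groups that did not overlap between ECH and Ct (Clec4d, Clec4n and Clec12a), where 7.97% of all genes did not, and 4 of 8 between HF and Ct (these and Clec7a), where 9.04% did not. Between ECH and HF it was 0 of 8, with 6.92% of all genes. In two-sided exact permutation tests of each receptor, these 7 comparisons gave p = 0.0286, the smallest that 4 against 4 libraries allow, and 0.0980 after adjustment over 24 tests. At an unadjusted edgeR p under 0.05 stood 4 of 8 receptors in ECH, against 11.9% of all genes, and the same 4 in HF, against 16.1%. The median log2 fold change of the 8 was 0.059 in both comparisons with Ct, beside 0.010 and −0.015 over all genes, with 5 of 8 above 0 in ECH and 4 of 8 in HF.

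To compare levels between the genes, CPM were divided by the length of the longest protein-coding transcript of each. On this scale Clec4a3 led in Ct, at 265 ± 22.1 CPM per kilobase, before Clec4n (144 ± 31.5) and Clec7a (134 ± 13.5), whose ranges overlapped. Clec4a1 (85.8 ± 5.03), Clec12a (82.5 ± 16.2) and Clec4a2 (81.0 ± 4.98) followed and overlapped, and Clec4e (30.5 ± 18.4) and Clec4d (22.9 ± 9.31) came last and overlapped. In ECH, Clec4n had the highest mean (311 ± 111.2), not apart from Clec4a3 (271 ± 22.7), and Clec12a the lowest (29.9 ± 15.9), not apart from Clec4e (39.2 ± 7.11). Clec4d had rank 4 in ECH, at 85.5 ± 23.6, and overlapped Clec4a1 (91.3 ± 10.5) and Clec4a2 (78.4 ± 11.96). In HF the order ran from Clec4n (364 ± 71.1) and Clec4a3 (298 ± 12.7), which overlapped, to Clec12a (47.0 ± 8.37) and Clec4e (30.1 ± 12.001), which also overlapped.

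Clec4n made up 16.97% of the summed level per length of the 8 genes in Ct (13.7 to 20.8% over libraries), 31.1% in ECH (23.9 to 39.1%) and 35.1% in HF (28.8 to 38.7%). Clec7a went from 15.8% in Ct (14.9 to 17.3%) to 7.36% in ECH (5.30 to 11.3%) and 6.52% in HF (4.72 to 9.11%). The level per length of Clec4n was 0.790 to 1.35 times that of Clec7a in Ct libraries, 3.02 to 5.96 times in ECH and 3.17 to 8.21 times in HF. The lowest ratio in a mouse given isoproterenol (3.02) was above the highest in Ct (1.35). This restates the Clec4n and Clec7a values given above and is no separate result. Clec4d over its neighbour Clec4e had ratios of 0.519 to 1.84 in Ct, 1.71 to 2.52 in ECH and 0.909 to 3.72 in HF, which overlapped. Taking the union of all exons as the length moved 6 of 24 ranks, each by 1 place. It took Clec12a from 2502 to 5528 bp and Clec4e from 2518 to 4965 bp. Their levels per length, and the ratio of Clec4d to Clec4e, therefore depend on the length chosen.

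**Figure D3:**
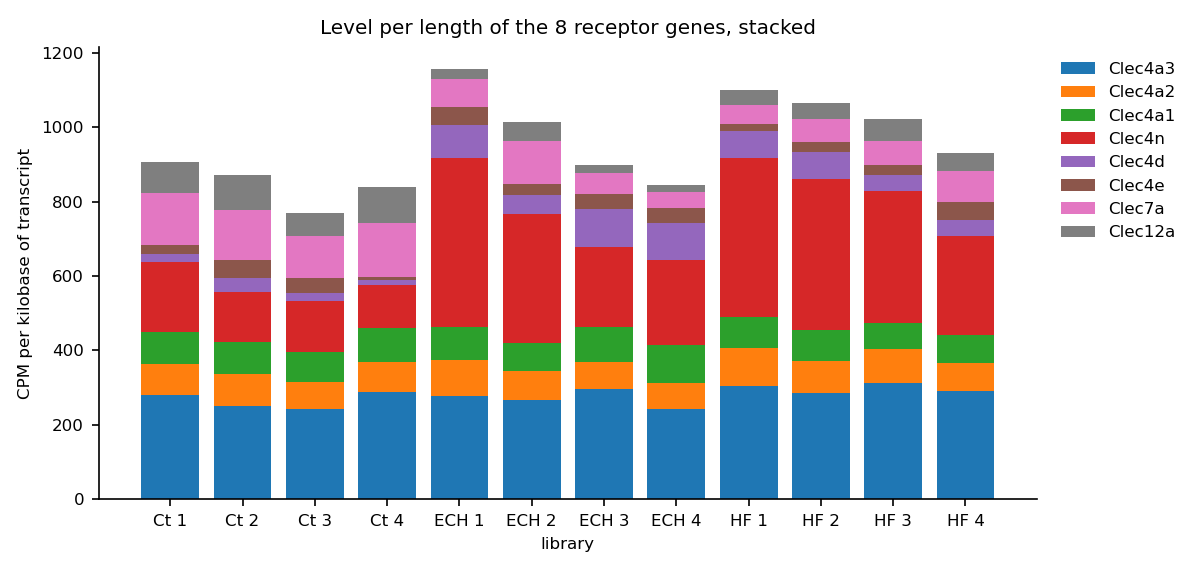
Level of the 8 receptor genes per kilobase of the longest protein-coding transcript, stacked for each of the 12 libraries. The band of Clec4n widens from 13.7 to 20.8% of a Ct bar to at least 23.9% of every ECH and HF bar, and those of the Clec4a genes hold nearly the same height.

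The 19 signalling partners of these receptors gave 0 calls in each of the 3 comparisons by edgeR, and 0 by DESeq2 and limma-voom. At an unadjusted p under 0.05 there were 2 of 19 in ECH over Ct, 1 of 19 in HF over Ct and 3 of 19 in ECH over HF, beside 11.9%, 16.1% and 7.98% of all genes. Inpp5d, which encodes the phosphatase SHIP1, was at 348 ± 60.4 CPM in Ct against 524 ± 105 in ECH and 325 ± 4.37 in HF (log2 fold change of ECH over Ct 0.59, edgeR FDR 0.140, and over HF 0.69, FDR 0.491). Syk, the kinase itself, was at 206 ± 9.03, 254 ± 33.3 and 203 ± 26.9 CPM (0.31, edgeR FDR 0.373, and 0.33, FDR 0.576). Fcer1g, the adaptor of Dectin-2, MCL and Mincle, was at 1373 ± 168 CPM in Ct against 1442 ± 91.3 in ECH and 1664 ± 153 in HF (HF over Ct 0.28, edgeR FDR 0.296). Malt1, of the CARD9 complex, was at 35.1 ± 10.6 CPM in Ct and 27.3 ± 7.63 CPM in HF (−0.36, edgeR FDR 0.491). The median log2 fold change of the partners was 0.078 in ECH, −0.039 in HF and 0.085 in ECH over HF, beside 0.010, −0.015 and 0.018 over all genes.

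Of 20 other C-type lectin genes of myeloid cells, 18 were tested and 0 were called by edgeR or limma-voom in any comparison, while DESeq2 called Clec2d lower in ECH. At an unadjusted p under 0.05 there were 4 of 18 in ECH over Ct, all lower, 5 of 18 in HF over Ct, 2 higher and 3 lower, and 3 of 18 in ECH over HF, all lower, beside the same shares of all genes (11.9%, 16.1% and 7.98%). Clec4b1, which lies between Clec4a3 and Clec4a2, was at 72.4 ± 8.37 CPM in Ct against 39.7 ± 7.50 in ECH and 56.0 ± 14.9 in HF (log2 fold change of ECH −0.87, edgeR FDR 0.0914). Clec10a, a galactose-type lectin, was at 163 ± 20.7 CPM in Ct against 96.9 ± 32.0 in ECH and 86.1 ± 14.95 in HF (−0.75 in ECH, edgeR FDR 0.169, and −0.92 in HF, FDR 0.0878). Its relative Mgl2 was at 695 ± 282, 566 ± 327 and 1258 ± 216 CPM (ECH over HF −1.15, edgeR FDR 0.535). Cd209a, also a dendritic cell marker, was at 45.2 ± 7.37 CPM in Ct against 49.0 ± 16.2 in ECH and 84.2 ± 8.92 in HF (HF over Ct 0.90, edgeR FDR 0.107, and ECH over HF −0.78, FDR 0.534).

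Of 17 genes that Dectin-1, Dectin-2 or Mincle can induce, 16 were tested and 0 were called by edgeR or limma-voom, while DESeq2 called Il6 lower in ECH and in HF. At an unadjusted p under 0.05 there were 2 of 16 in ECH and 2 of 16 in HF, all lower than Ct, close to or below the 11.9% and 16.1% of all genes, and 0 of 16 in ECH over HF (7.98% of all genes). The fold change was below 0 for 12 of 16 in ECH (median −0.52) and 14 of 16 in HF (median −0.39), where 51.1% and 48.8% of all genes were above 0. Il6 was at 31.8 ± 22.4 CPM in Ct against 8.91 ± 3.57 in ECH and 9.49 ± 2.98 in HF (−1.83, edgeR FDR 0.126, and −1.74, FDR 0.127). Il1b was at 1178 ± 339 CPM in Ct and 635 ± 374 CPM in ECH (−0.89, edgeR FDR 0.400), and Nlrp3, of the inflammasome, at 79.9 ± 22.3 CPM in Ct and 46.7 ± 16.4 CPM in HF (−0.77, edgeR FDR 0.261). Ccl3 was at 1082 ± 308 CPM in ECH and 892 ± 239 CPM in HF (0.28, edgeR FDR 0.850), and Csf3 was near the floor of detection, at 0.932 ± 0.874 and 0.260 ± 0.362 CPM (1.84, edgeR FDR 0.844). The tissue dissociation genes, of which 10 of 10 had a fold change below 0 in ECH (median −0.71) and in HF (median −0.75), moved with this list, and their part in it was not tested.

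**Figure D4:**
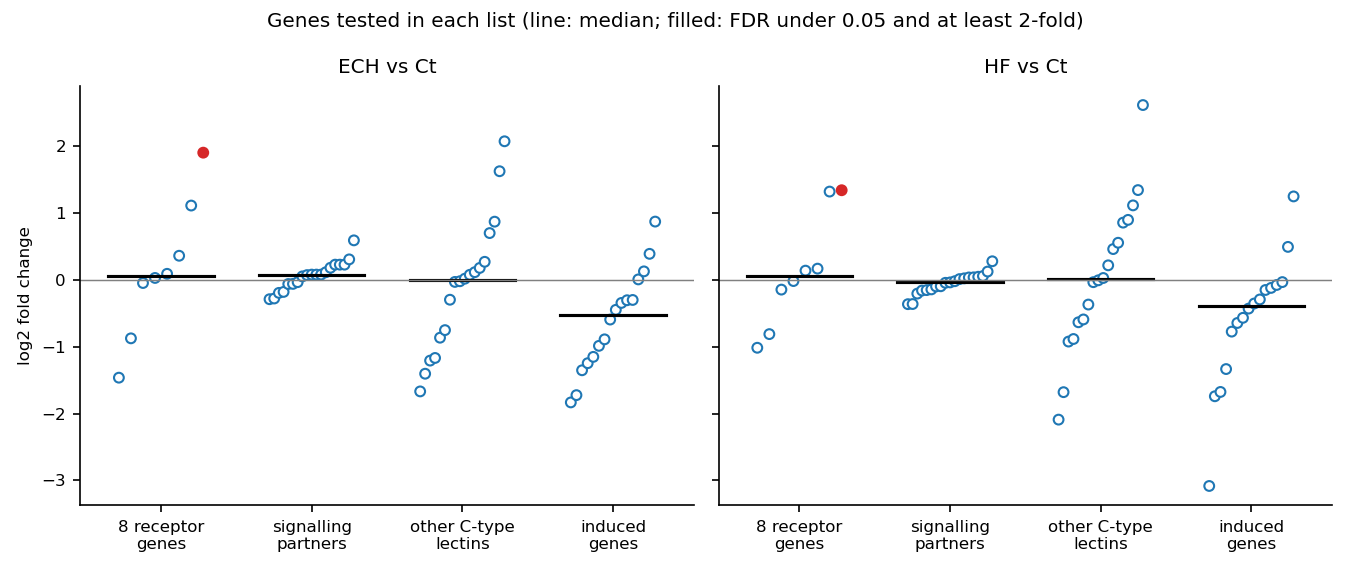
Log2 fold changes over Ct of every gene tested among the 8 receptor genes, their signalling partners (19), other C-type lectins (18) and genes they can induce (16), on a linear axis. Lines are medians and filled points are called genes. The signalling partners gather near 0 and the induced genes have medians below it (−0.52 in ECH and −0.39 in HF), with 0 called by edgeR outside the receptors.

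Over the 12 libraries, which include the differences between groups, Clec7a and Clec12a varied together (Pearson r of log2 CPM 0.854), and both ran against Clec4d (−0.850 and −0.875). Clec4d and Clec4n had r = 0.692, and Clec4d and Clec4e, though neighbours, 0.495. Clec4a1 and Clec4a3 had r = −0.337. These values describe 12 libraries of 3 groups that differ in set, depth and marker content.

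Of 11934 genes outside the 8, those with a pattern among the most like that of each receptor over the 12 libraries were Marcks (Pearson r 0.986) and Fcer2a, an IgE receptor of B cells (0.936), for Clec12a, and Fgd2 (0.915) for Clec7a. For Clec4d they were Wee1 (0.948) and 2010111I01Rik (0.946), and for Clec4n Vps26a (0.967) and Ctla2b (0.951). Marcks was at 693 ± 63.7 CPM in Ct against 451 ± 120 in ECH and 551 ± 53.4 in HF. Wee1, which encodes a cell cycle kinase, was at 5.78 ± 3.54, 26.7 ± 12.99 and 16.0 ± 5.85 CPM in the same order, and Vps26a, of the retromer, at 175 ± 10.1, 208 ± 13.5 and 229 ± 12.8 CPM. The closest genes to Clec4e were Psma6 (0.881) and Psmd4 (0.881), both of the proteasome. They were Nisch (0.929) and Afap1l1 (0.929) for Clec4a1, Itm2b (0.907) and Mpnd (0.876) for Clec4a2, and Ppil2 (0.884) and Arl6ip1 (0.884) for Clec4a3.

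**Figure D5:**
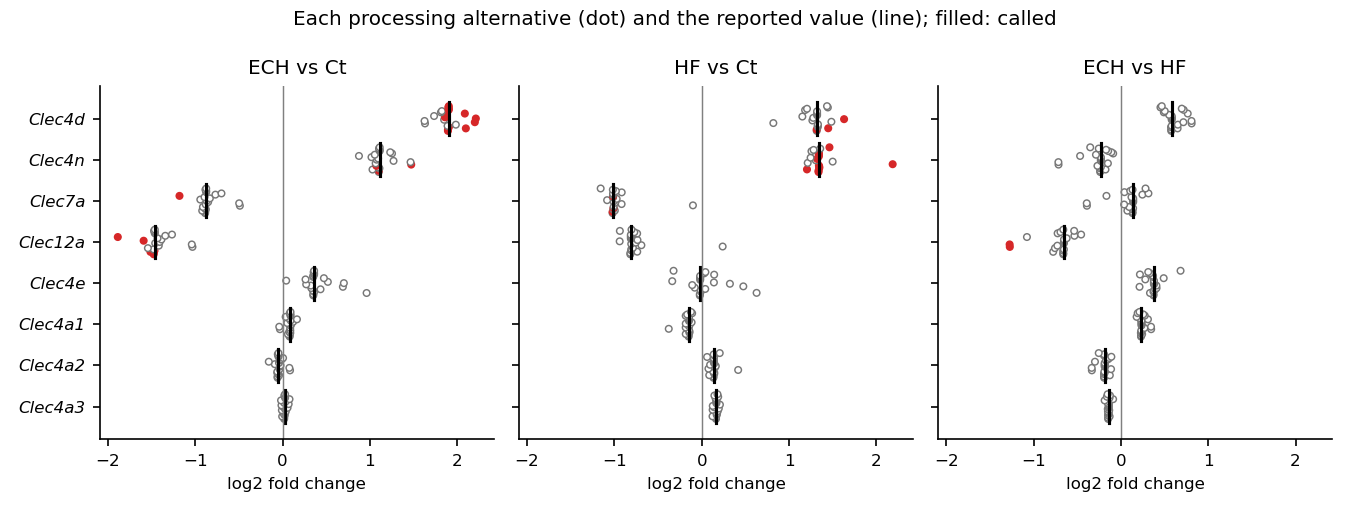
Log2 fold change of each receptor gene under every processing alternative (dots, filled where called) and as reported (line). Clec4d and Clec4n stay above 0 in ECH and HF in all alternatives, Clec12a and Clec7a stay below 0 in ECH, and Clec4e scatters around 0 in HF.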

How the data were processed

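The authors made cDNA of sorted Mφ with SMART-Seq v4, sequenced it as 75-base pairs, trimmed reads with Trimmomatic, aligned them to mm10 with TopHat2 and counted them with featureCounts. Each of the 12 files deposited by the authors lists raw counts for 24445 gene symbols in a single library. No source used here gives the tool versions, the annotation or the strand setting, and the libraries carry no molecular identifiers. Samples were grouped by the treatment in their labels. The counts were tested with edgeR 4.0.16 under R 4.3.3 (filterByExpr by group, TMM, quasi-likelihood, 12 libraries, 3 group means, Benjamini-Hochberg over 14608 genes). The biological coefficient of variation was 60.8%. Standard errors were derived from the fold change and its F value. Totals of 88466559 to 111180291 counts set the counting precision, and the spread between mice set the errors. Permutation tests used log2(CPM + 0.1), with scipy 1.17.1. The code was tested on simulated data. Lengths and windows came from GENCODE M21. Length per longest protein-coding transcript was chosen after the exon unions were seen.

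Receptors and lists were chosen with earlier results of these data known. Named were all receptors, the 2 listed pathway genes with the lowest p in each comparison where none was called, and the 2 genes most correlated with each receptor (mean of at least 1 CPM), of which 1 is not reported here. Clec2d, Clec4a4 and the marker genes were named beyond this rule, after their values were seen. Marker lists were those of Mφ, neutrophils, monocytes, dendritic cells, resident Mφ, B cells, T and NK cells, endothelial cells, fibroblasts, cardiomyocytes and tissue dissociation. Alternatives were RLE scaling, DESeq2 1.42.0, limma-voom 3.58.1 with quality weights, no filter, a block for the replicate number, a covariate for the inferred set, fits of only the groups compared, single sets, no minimum fold change, a pseudocount of 1 CPM, libraries left out, and exon unions as lengths. Figures were drawn with matplotlib 3.10.9.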

Additional observations from a re-analysis of the deposited data

Results flagged for a closer look

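Clec4d in ECH library 2, at 67.2 CPM, stood apart from the other ECH libraries, which held 120.2 to 134 CPM. Its gap to the next library was 0.846 of the range of the group on the log2 scale, above Dixon's 95% critical value for 4 samples. It was the only 1 of 24 groups of 4 libraries (8 receptors, 3 groups) to pass this limit, and chance alone passes about 1 in 20. ECH library 2 was also the ECH library with the most Clec7a (261 CPM) and Clec12a (132 CPM). Without it, the log2 fold change of Clec4d over Ct was 2.09 (edgeR FDR 0.0129), and Clec7a and Clec12a were called lower in ECH.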

How the results depend on the processing

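Of the receptors' log2 fold changes under the alternatives, 442 kept their direction and their side of the threshold, 15 lost a call, 18 gained one and 21 turned. All 24 exact permutation results kept theirs with a pseudocount of 1 CPM. The number of receptors called between ECH and Ct (1) became 2 with RLE scaling, limma-voom or no filter, 3 with DESeq2, and 0 with only the 2 groups compared or with set A alone, and lay between 0 and 3 as single libraries were left out. Between HF and Ct (1) it became 3 with DESeq2, 2 with limma-voom or only the 2 groups compared, and 0 without Ct library 2 and HF library 1, and lay between 0 and 2 with single libraries left out. Between ECH and HF (0) it became 1 with set B alone or the set as a covariate. Over all genes the calls went from 52 to 248 (DESeq2), 84 (limma-voom), 8 (only 2 groups), 22 (covariate or block) and 1 (set A) for ECH over Ct, from 55 to 333, 130, 41, 208 (covariate) and 18 (block) for HF over Ct, and from 0 to 47 (DESeq2), 272 (covariate) and 370 (set B) for ECH over HF. Turned values were Clec4a3 in ECH over Ct (−0.0049 with limma-voom, −0.0081 without Ct library 2 and HF library 1), Clec4e in HF over Ct (0.63, 0.040 with the replicate block, 0.48 without those libraries), Clec4a1 and Clec4a2 in ECH over Ct (−0.030 and 0.085 with the covariate, −0.038 and 0.078 in set A), Clec12a in HF over Ct (0.24 with the covariate) and Clec7a in ECH over HF (−0.39 with the covariate and in set B). With single libraries left out, Clec4e in HF over Ct ranged from −0.34 to 0.32, Clec4a3 and Clec4a2 in ECH over Ct from −0.018 to 0.079 and from −0.16 to 0.0058, and Clec7a in ECH over HF from −0.16 to 0.32. The cause of these changes was not tested. Same-numbered libraries did not deviate together (r −0.076 to 0.083), so no pairing by number was seen, though this cannot exclude one. With the replicate block the counts called stayed at 1, 1 and 0, but in ECH over Ct Clec4n (1.07, edgeR FDR 0.0410) was called and Clec4d (1.98, FDR 0.0511) was not. The same change of the gene called came with the set as a covariate (Clec4d at an FDR of 0.126).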
